A study of Mus musculus with 6 samples.

Results

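The hepatocyte transcription factors described here are the products of Hnf4a, Foxa1, Foxa2, Foxa3, Cebpa, Cebpb, Nr5a2, Prox1 and Nr1h4. They were chosen by gene symbol, each with the brightest probe set that the platform annotation gives to that symbol alone, and all 9 were found among the 19938 named genes of the series. Each of the 9 had 1 such probe set. RNA came from whole fetal livers of C57BL/6J mouse embryos at E14.5, a stage of fetal liver development. The Tmod3 KO group held 3 livers of Tmod3-/- embryos, which the labels call small livers with anemia, and the Tmod3 WT group held 3 livers of Tmod3+/+ embryos, labelled normal. Each liver came from its own embryo and was hybridised to 1 Affymetrix MoGene 1.0 ST array, which has no read depth, so the 6 arrays limit the precision. The sources used here do not state how the Tmod3 allele was made.

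These factors hold hepatocyte identity in place. The FOXA proteins are forkhead factors that open compact chromatin in the endoderm and prepare liver genes for activation. HNF4A is a nuclear receptor that keeps up a broad set of metabolic and secretory genes of the hepatocyte, and the C/EBP proteins are leucine zipper factors, of which CEBPA drives metabolic maturation and CEBPB the acute phase response. NR5A2 and NR1H4 are nuclear receptors of bile acid and cholesterol metabolism, and PROX1 is a homeobox factor that hepatoblasts need to spread through the liver bud. At this stage the fetal liver is mainly a site of red cell formation, so hepatoblasts share the organ with a large erythroid population. In bulk RNA, fewer cells of a type and less RNA per cell cannot be told apart.

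The sequences upstream of a few genes are shown with the letters of liver factors searched for in them. First come Hnf4a, the centre of the network, and Foxa2, the single member with separate groups. Target genes and the hepatocyte marker gene Apoh follow, which hold such letters and whose values are given further on. The sequences are taken from the 200 bases before a RefSeq start, read 5′ to 3′ on the gene's strand in the assembly GRCm38.p6. Capitals mark matches, on either strand, to CAAAGNNCA (an HNF4 motif), TGTTTNC (FOXA), TTGCNNAA (C/EBP), CAAAACAA (the insulin response element), ATCAATA (ONECUT) or AGGTCA (a nuclear receptor half-site). The letters were chosen with these promoters in view, and no marked match overlapped another. Hnf4a has 2 annotated starts, 40298 bases apart, and 1 probe set on this array, so the transcripts of both starts were not measured separately. Its upstream start (chr2:163506657-163506810, plus strand, cut off 1 base before the annotated gene begins and so 46 bases short of the start at 163506857) and its downstream start (chr2:163546955-163547154, plus strand, inside the gene) are followed by the outermost of 3 starts of Foxa2 (chr2:148046970-148047169, minus strand).
Hnf4a, upstream start: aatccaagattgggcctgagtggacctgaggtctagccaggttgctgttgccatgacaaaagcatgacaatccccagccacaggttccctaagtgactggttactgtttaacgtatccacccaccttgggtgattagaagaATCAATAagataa
Hnf4a, downstream start: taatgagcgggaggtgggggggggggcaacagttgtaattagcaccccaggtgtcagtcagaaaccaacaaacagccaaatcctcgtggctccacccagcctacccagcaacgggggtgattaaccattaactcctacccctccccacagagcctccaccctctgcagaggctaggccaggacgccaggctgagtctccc
Foxa2: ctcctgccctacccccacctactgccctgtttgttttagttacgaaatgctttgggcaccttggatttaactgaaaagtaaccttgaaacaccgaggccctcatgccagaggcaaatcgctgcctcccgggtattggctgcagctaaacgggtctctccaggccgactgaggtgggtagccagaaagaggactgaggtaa
The ONECUT letters are near the end of the run for the upstream Hnf4a start, while none of the letters searched is in the windows shown for the downstream start and for Foxa2. The target genes are Alb (chr5:90460670-90460869), Afp (chr5:90490514-90490713) and Igfbp1 (chr11:7197587-7197786). Apoh (chr11:108395097-108395296) is on the list of hepatocyte markers only and on none of the target lists. All of these are on the plus strand.
Alb: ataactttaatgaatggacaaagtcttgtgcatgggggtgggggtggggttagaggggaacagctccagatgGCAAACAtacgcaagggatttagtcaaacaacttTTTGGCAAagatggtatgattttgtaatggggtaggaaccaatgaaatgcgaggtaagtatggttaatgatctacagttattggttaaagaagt
Afp: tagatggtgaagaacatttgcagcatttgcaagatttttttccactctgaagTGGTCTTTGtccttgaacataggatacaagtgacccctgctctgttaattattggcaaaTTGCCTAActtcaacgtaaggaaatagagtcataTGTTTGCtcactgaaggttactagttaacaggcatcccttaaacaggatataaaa
Igfbp1: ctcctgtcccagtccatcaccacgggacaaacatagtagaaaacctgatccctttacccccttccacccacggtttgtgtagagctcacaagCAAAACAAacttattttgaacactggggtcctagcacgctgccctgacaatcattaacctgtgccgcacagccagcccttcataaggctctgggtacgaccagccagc
Apoh: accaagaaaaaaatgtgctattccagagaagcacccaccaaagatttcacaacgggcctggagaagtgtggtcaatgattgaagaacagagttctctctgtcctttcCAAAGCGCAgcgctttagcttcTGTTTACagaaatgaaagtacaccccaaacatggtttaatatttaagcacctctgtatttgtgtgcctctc
Alb and Afp each hold C/EBP and FOXA letters, and Afp also HNF4 letters. Igfbp1 holds the insulin response element, and Apoh holds HNF4 and FOXA letters. Over the 14 windows of the members, FOXA letters were found in 2, ONECUT letters in 1, the half-site in 1, and HNF4 and C/EBP letters and the insulin response element in 0. Among all 32851 RefSeq windows of 200 bases, the share was 14.1% for FOXA, 1.42% for ONECUT, 11.4% for the half-site, 4.36% for HNF4, 7.47% for C/EBP and 1.63% for the insulin response element. A match describes the letters only, and no binding was measured.

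As measured, Tmod3 transcript in KO livers was lower by 8.33-fold (limma adjusted p = 0.0225), with 1.32, 2.36 and 1.30 in the KO arrays against 4.49, 4.78 and 4.90 in the WT arrays, so every array matched its genotype. The values of KO replicates 1 and 3 were under their own array medians of 1.43. A signal that low may be background, and by how much the fold is then understated was not tested. The fold given for Tmod3 is that of the measured values only. With 1 array left out, its log2 fold change was -3.41 to -2.88, but the adjusted p was 0.0856 to 0.255 without KO replicates 1 or 3 or WT replicates 2 or 3. Values are as deposited and were read as log2, a base inferred from their range. Alb and Afp, which define the hepatoblast, were among the brightest genes in all 6 arrays, with 9.73, 9.84 and 8.74 for Alb and 10.72, 10.75 and 10.38 for Afp in KO livers. In WT livers they read 9.90, 10.12 and 10.10 for Alb and 10.45, 10.68 and 10.57 for Afp. The liver label therefore fits these defining markers.

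None of the 9 factors passed the test between genotypes (limma, Benjamini-Hochberg adjusted p of 0.696 to 0.995, threshold 0.05), where 0.015% of all genes passed. At an unadjusted p under 0.05 the count was also 0 of 9, against 9.03% of all genes. The log2 fold change of KO minus WT was above 0 for 5 members and below 0 for 4. Its median over the 9 was 0.01, and over all genes it was also 0.01. The 95% intervals of all 9 members lay between -0.51 and 0.71, which as a ratio of KO to WT is 0.703 to 1.64. For 8 of the 9 the difference was smaller than the larger of its SDs within a genotype. The exception was Foxa3, with -0.09 against an SD of 0.08 in KO and 0.06 in WT livers. The intervals are those of the measured values. The members read 1.27 to 2.45 in KO livers and 1.34 to 2.30 in WT livers, little above the array medians of 1.36 to 1.43, and 3 of the 54 values lay below the median of their own array. Near that floor a ratio can be understated, and by how much was not tested.

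**Figure D1:**
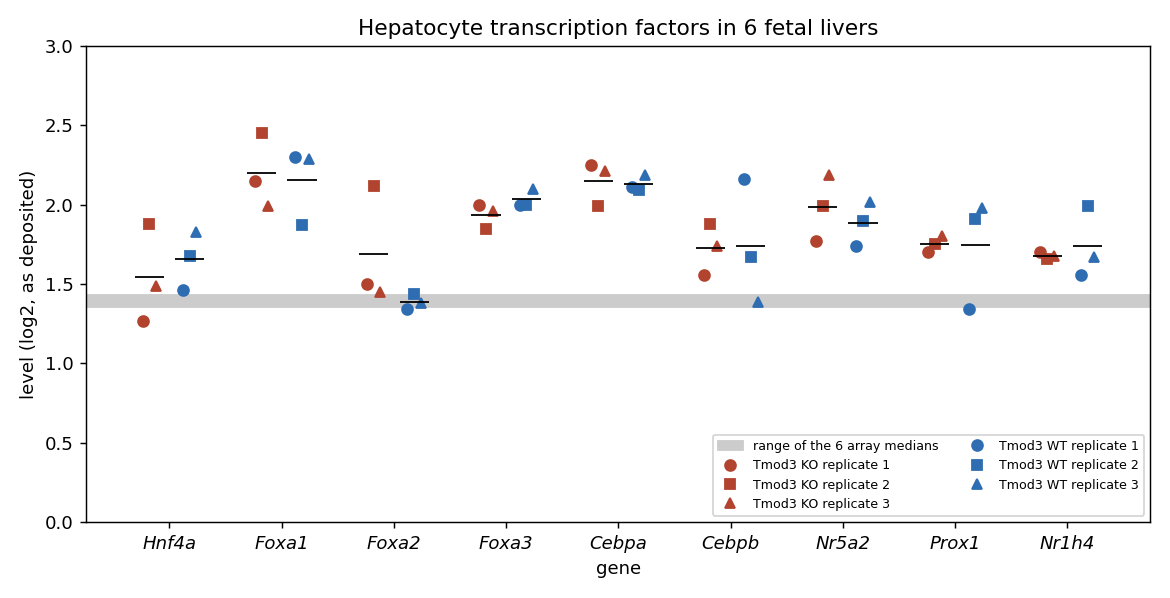
Level of each factor as deposited, read as log2 (vertical axis), by gene (horizontal axis). Tmod3 KO arrays are in red left of Tmod3 WT arrays in blue, with 1 symbol per replicate. A black line marks each group mean (n = 3), and a grey band the array medians of 1.36 to 1.43. The groups overlap for every gene except Foxa2, where KO replicate 2 (2.12) stands above the other 5 arrays.

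HNF4A stands at the centre of the hepatocyte network. Hnf4a (chromosome 2, Entrez 15378) read 1.27, 1.88 and 1.49 in the KO livers and 1.46, 1.68 and 1.83 in the WT livers. KO replicate 1 was the lowest and KO replicate 2 the highest of the 6, so the knockout livers spanned the wild type ones. The means were 1.54 ± 0.31 in KO and 1.66 ± 0.19 in WT livers (SD, n = 3 each). The log2 fold change was -0.11 with a 95% interval of -0.51 to 0.28 (limma adjusted p = 0.900). Its sign rested on KO replicate 1, without which it was 0.02. The antisense gene Hnf4aos, which overlaps the upstream start region of Hnf4a on the chromosome, averaged 1.55 ± 0.28 in KO and 1.41 ± 0.21 in WT livers (SD, n = 3 each, limma adjusted p = 0.870).

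The FOXA genes gave 1 member with separate groups. Foxa2 (chromosome 2, Entrez 15376), needed with Foxa1 for the start of liver development, read 1.5, 2.12 and 1.45 in KO livers and 1.34, 1.44 and 1.38 in WT livers. All 3 KO values were above all 3 WT values, but the gap between the groups was 0.01, and KO replicate 2 alone was clearly high. The means were 1.69 ± 0.37 and 1.38 ± 0.05 (KO and WT, SD, n = 3 each), and the log2 fold change was 0.30 with a 95% interval of -0.11 to 0.71 (limma adjusted p = 0.696). Without KO replicate 2 the log2 fold change was 0.09. Separate groups were seen in 1 of 9 members and in 13.2% of all genes, 6.14% with KO above WT and 7.1% with KO below, so the count among the members is near the background. The WT values of Foxa2 lay near the array medians, so its level there is near the floor.

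Foxa1 (chromosome 12, Entrez 15375) read 2.15, 2.45 and 1.99 in KO livers and 2.30, 1.87 and 2.29 in WT livers. The groups overlapped widely, with the extremes in KO replicate 2 and WT replicate 2. The log2 fold change was 0.05 (95% interval -0.33 to 0.43), and it was -0.08 without KO replicate 2 and -0.10 without WT replicate 2. Foxa3 (chromosome 7, Entrez 15377), the family member best known for glucose handling in the adult liver, was among the steadiest of the 9. It read 2.0, 1.85 and 1.96 in KO livers and 2.0, 2.0 and 2.10 in WT livers. Its log2 fold change of -0.09 had the narrowest interval of the 9, -0.32 to 0.13 (limma adjusted p = 0.843), and it stayed below 0 without any 1 array. KO replicate 2, the highest array for Foxa1 and Foxa2, was the lowest for Foxa3.

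Neither of the C/EBP genes passed the test between genotypes, and they differed in their spread. Cebpa (chromosome 7, Entrez 12606) read 2.25, 1.99 and 2.21 in KO livers and 2.11, 2.09 and 2.19 in WT livers. The KO values lay on both sides of the WT values, with a log2 fold change of 0.02 (95% interval -0.23 to 0.27, limma adjusted p = 0.973). Cebpb (chromosome 2, Entrez 12608) read 1.56, 1.88 and 1.74 in KO livers and 2.16, 1.67 and 1.39 in WT livers. Here the WT livers held both the highest and the lowest array, and the SD was 0.16 in KO livers and 0.39 in WT livers. The log2 fold change was -0.01 (95% interval -0.46 to 0.43), 0.20 without WT replicate 1 and -0.19 without WT replicate 3.

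The nuclear receptor genes of bile acid metabolism also kept within their spread. Nr5a2 (chromosome 1, Entrez 26424), which encodes LRH-1, read 1.77, 1.99 and 2.19 in KO livers and 1.74, 1.90 and 2.02 in WT livers. The groups overlapped in most of their range, and the log2 fold change was 0.10 (95% interval -0.22 to 0.41), and -0.01 without KO replicate 3. Nr1h4 (chromosome 10, Entrez 20186), which encodes the bile acid receptor FXR, read 1.70, 1.66 and 1.68 in KO livers and 1.56, 1.99 and 1.67 in WT livers. The KO arrays were nearly alike (SD 0.02) and lay inside the WT range (SD 0.22). The log2 fold change was -0.06 (95% interval -0.35 to 0.24), and 0.07 without WT replicate 2. Prox1 (chromosome 1, Entrez 19130), which is also a factor of lymphatic endothelium, read 1.70, 1.75 and 1.80 in KO livers and 1.34, 1.91 and 1.98 in WT livers. As for Nr1h4, the KO arrays were close together (SD 0.05) inside a wider WT range (SD 0.35). The log2 fold change was 0.01 (95% interval -0.38 to 0.40), and -0.19 without WT replicate 1, which lay below its array median of 1.43.

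**Figure D2:**
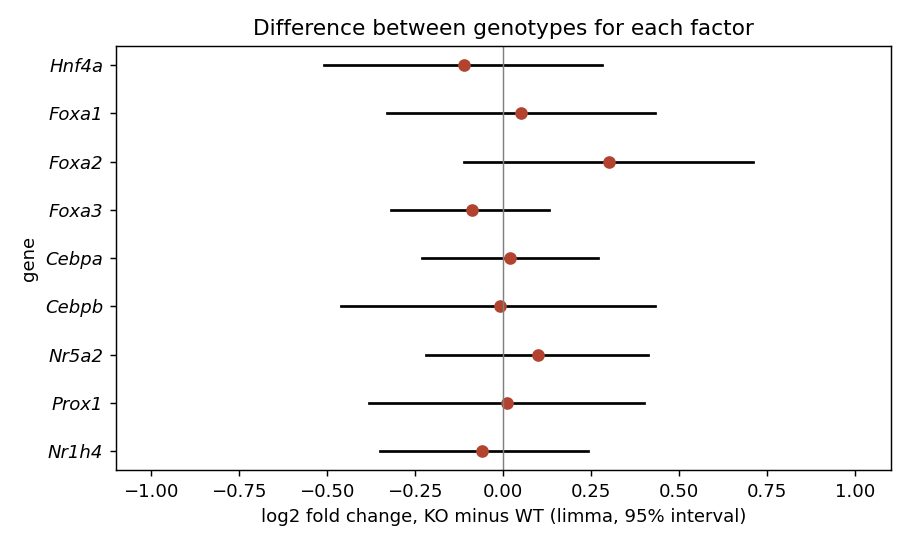
Log2 fold change of Tmod3 KO minus Tmod3 WT (horizontal axis, point) with its 95% interval from limma (line) for each of the 9 factors (vertical axis), 3 arrays per genotype. Every interval includes 0, and the outermost bounds are -0.51 for Hnf4a and 0.71 for Foxa2.

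No 1 array was high or low for the factors as a group. Of the 9 members, 3 were highest in KO replicate 2, 2 in WT replicate 3 and 1 in each of the other arrays. Of the lowest values, 4 fell in WT replicate 1, 2 in KO replicate 2, 1 each in KO replicate 1, WT replicate 2 and WT replicate 3, and 0 in KO replicate 3. The mean level over the 9 was 1.77, 1.95 and 1.84 in KO livers and 1.78, 1.84 and 1.87 in WT livers. No member reached a mean level of 3, the level set for naming genes of like pattern, so no such genes are named. Genes of the members' level range, with means from 1.53 to 2.17, numbered 4015. Their median log2 fold change was -0.03, their 5th and 95th percentiles were -0.37 and 0.28, and 9.02% had an unadjusted p under 0.05. Among the 2545 genes with a mean of at least 3 the median was -0.25 and that share was 28.9%.

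Other hepatic transcription factors gave the same count. Of 28 measured, 0 passed over all genes in either direction, 1 had an unadjusted p under 0.05 (2.59% of all genes in that direction, higher in KO), and the median log2 fold change was 0.05. That gene was Tbx3, a T-box factor that hepatoblasts need to expand, with 1.79, 2.11 and 2.02 in KO livers and 1.77, 1.54 and 1.68 in WT livers. Its groups were separate by little, and the log2 fold change of 0.31 did not pass (limma adjusted p = 0.516). Next by p were Nr1i3, the receptor CAR, with 0.21, Klf15 with 0.21 and Nr2f2, which encodes COUP-TFII, with 0.28. Klf15 had 0.13 without WT replicate 1, and Nr2f2 had 0.125 without KO replicate 3.

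Target genes of the factors were read from lists of known targets, on which 0 genes passed over all genes. At an unadjusted p under 0.05, 2.59% of all genes were higher in KO and 6.44% lower, and the counts of each list are to be read against these shares. For HNF4A the 12 measured targets had a median log2 fold change of -0.17, with 3 at an unadjusted p under 0.05 and all 3 lower in KO. They were Otc, the urea cycle enzyme (-0.92), the clotting factor gene F9 (-0.31) and the thyroid hormone carrier gene Ttr (-0.64), with limma adjusted p from 0.299 to 0.540. Otc read 3.10, 2.56 and 2.35 in KO livers and 3.19, 3.83 and 3.76 in WT livers, and the groups were separate, with replicate 1 of each genotype close together. Apob, the lipoprotein backbone, had -0.48. Without KO replicate 3 the values were -0.19 for F9, -0.36 for Ttr and -0.22 for Apob and the median of the list was -0.11, and without WT replicates 1 and 3 in turn that median was -0.27 and -0.07. The 9 FOXA targets had a median of 0.02, with 1 gene in each direction at an unadjusted p under 0.05, Igfbp1 higher and Ttr lower. Ttr is also on the HNF4A list and among the hepatocyte markers. The lists share other genes too, such as Alb, Afp and Apob, so their counts and medians are not independent. Igfbp1, an insulin-like growth factor binding protein gene, read 5.18, 6.15 and 3.85 in KO livers and 2.42, 2.46 and 2.82 in WT livers, with a log2 fold change of 2.50 that did not pass (limma adjusted p = 0.202). Alb had -0.60, and -0.26 without KO replicate 3, and Afp had 0.04. The 14 C/EBP targets had a median of -0.10, and -0.05 without KO replicate 3. The glycogen synthase gene Gys2 at -0.44 and the acute phase gene Saa2 at 0.39 were the single genes in each direction at an unadjusted p under 0.05, and Saa2 had 0.22 without KO replicate 1. The 13 targets of NR5A2 and NR1H4 had a median of 0.03, with the bile salt export pump gene Abcb11 at -0.33 and Fgf15 at 0.29 as the single genes in each direction. Abcb11 had -0.21 without WT replicate 3, and Fgf15 had 0.19 without KO replicate 3. Saa2 and Abcb11 were above the median of the array in only 1 of 6 arrays each. The mean lay below the highest array median for 9 of the 14 C/EBP targets and 8 of the 13 targets of NR5A2 and NR1H4. The medians of those lists therefore rest mostly on genes near the floor, where a difference can be missed. That count was 3 of 12 for HNF4A and 2 of 9 for FOXA.

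Hepatocyte markers are set beside the factors as genes known from the same cell type, though the source of the factor signal was not tested. Of 20 measured, 0 passed, 7 had an unadjusted p under 0.05, all lower in KO, and the median log2 fold change was -0.54. Over all genes 6.44% were lower at that p, and among the bright genes with a mean of at least 3, 28.9% passed it in either direction. The 4 with the smallest p were Serpinc1 (antithrombin) with -0.64, Apoh with -1.24, Vtn (vitronectin) with -0.88 and Ahsg (fetuin-A) with -1.15. Their limma adjusted p was 0.314 to 0.509. The markers were not uniformly lower: 16 of the 20 were below 0 and 4 above it. Those above were Afp (0.04), Trf (0.05), Krt18 (0.17) and Cdh1 (0.38), and Dlk1 had -0.007. The mean level of the 20 markers was 5.93, 6.02 and 5.10 in KO livers and 5.89, 6.21 and 6.33 in WT livers, so KO replicate 3 stood apart. Without that array the median of the markers was -0.21, Vtn had -0.53, Ahsg -0.55, Apoh -0.92 and Serpinc1 -0.46. For the 9 factors KO replicate 3 (1.84) lay between the other KO arrays. The difference between the factors and the markers was not tested, and the markers are bright genes, for which the median fold change of the whole array was below 0, while the factors are dim.

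**Figure D3:**
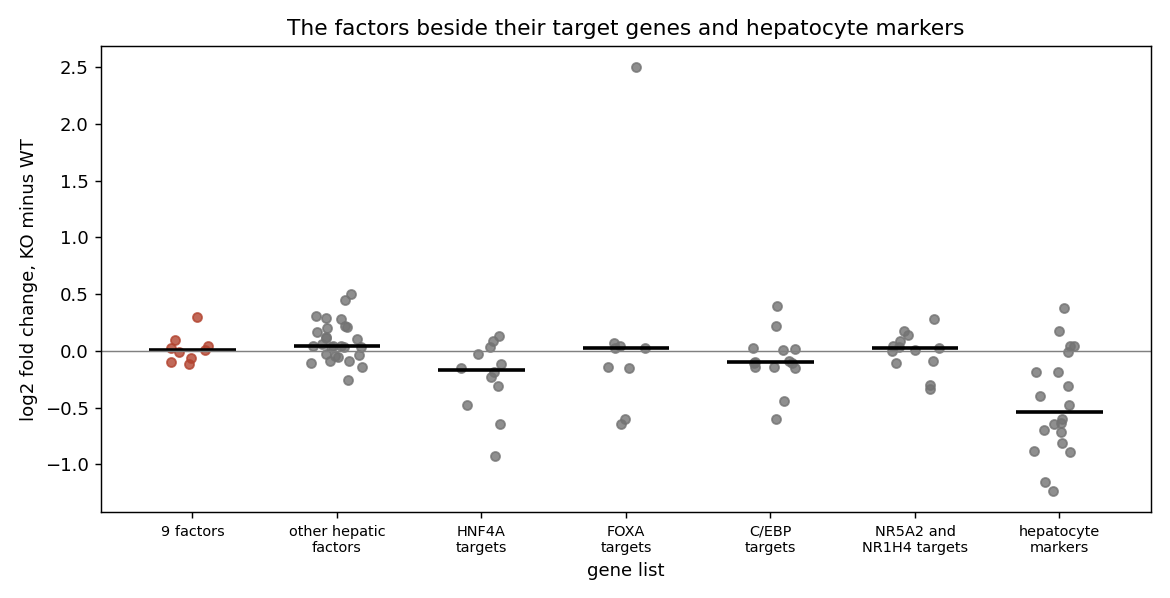
Log2 fold change of Tmod3 KO minus Tmod3 WT (vertical axis) for each measured gene of 7 lists (horizontal axis), with the 9 factors in red and a black line at each list's median. The factors lie between -0.11 and 0.30 around a median of 0.01, while the hepatocyte markers have a median of -0.54 and Igfbp1 (2.50) stands alone among the FOXA targets.

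**Figure D4:**
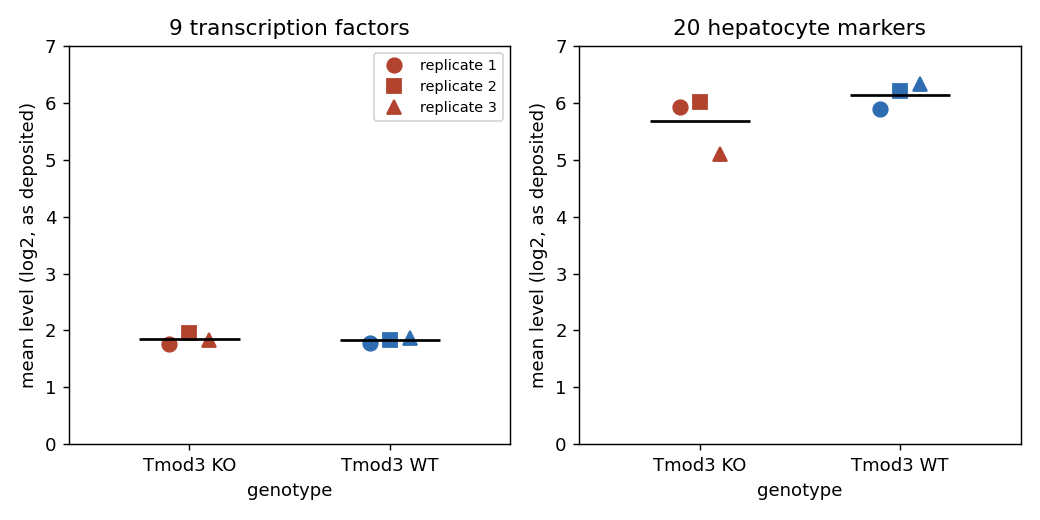
Mean level as deposited, read as log2 (vertical axis), of the 9 factors (left) and of the 20 hepatocyte markers (right) in each array. Arrays are set by genotype (horizontal axis), with 1 symbol per replicate and a black line at the group mean (n = 3). The factors lie between 1.77 and 1.95 in all arrays, and the markers are lowest in KO replicate 3 (5.10).

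Some members are also used by other cells, whose markers gave the following levels. Granulocyte and myeloid markers, of cells that use Cebpa and Cebpb, averaged 2.08 to 2.46 in KO and 2.14 to 2.33 in WT livers, with 6 of 11 below the highest array median. Endothelial markers and those of lymphatic cells, which use Prox1, were averaged together. They read 1.68 to 1.79 in KO and 1.59 to 1.65 in WT livers, with 6 of 10 below the highest array median. Biliary markers averaged 1.13 to 1.39 in KO and 1.21 to 1.32 in WT livers, with 4 of 6 below it, and markers of pancreas, gut and lung epithelium 1.35 to 1.47 and 1.23 to 1.42 (KO and WT), with 6 of 9 below it. Macrophage markers averaged 1.55 to 2.03 in KO and 1.97 to 2.29 in WT livers, mesenchymal markers 1.72 to 1.92 and 1.67 to 1.80 (KO and WT), and erythroid markers 4.15 to 4.44 and 4.51 to 4.92 (KO and WT). Their part in the levels of the 9 factors was not tested.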

How the data were processed

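Per the labels' protocols, the RNA was taken with Trizol, and 6 ug of it went into biotin labelling. The authors made the deposited values with RMA, per the submitters' processing notes, and the RMA version and genome build are not given in the sources used here. No source states the log base, and log2 was inferred for the deposited values because raising 2 to the highest of each array gives 3457 to 6451, within a scanner's range. The upper parts of the arrays differ more than a quantile step leaves them, so another step is possible. Array correlations were 0.974 to 0.990, which shows no duplicated array.

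Of 28853 probe sets, 21789 had 1 gene symbol, 1621 several and 5443 none in the annotation table, which gave 19938 genes by the brightest probe set. Gene positions and sequences are from RefSeq for GRCm38.p6, which held windows for all 9 factors. The genotypes were compared by limma (version 3.58.1, under R 4.3.3) with lmFit and eBayes, without covariates or a filter on dim genes, two-sided, and Benjamini-Hochberg adjusted over all genes, after the fit was tested on simulated data. Lists are described by counts and medians, with no list test. The factors and lists were chosen with earlier results of these data known. Named genes were the 9 factors, Tmod3 and up to 4 genes per list by smallest p; Afp and Hnf4aos were chosen after their values were seen. Same-numbered arrays were not treated as pairs, since the labels name no pairing. Their deviations from the group means correlated at 0.11, 0.06 and -0.10, and those of differently numbered arrays at -0.191 to 0.186. With 3 arrays per group these correlations depend on each other and cannot exclude a pairing. Alternatives were a threshold of 0.1, array weights, a robust fit with a trend on intensity, 2 filters that drop dim genes, the average of a gene's probe sets, centring on medians, another quantile step, each array left out in turn and the replicate number as a block.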

Additional observations from a re-analysis of the deposited data

How the results depend on the processing

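None of the 9 factors passed under any of the alternatives in which they were tested (lowest adjusted p 0.486). The filter that kept the brightest 20% of genes left none of them, so it gave no value. Their median log2 fold change stayed between -0.05 and 0.05 when 1 array was left out. Of the 14 alternatives that gave values, 5 leave the fold change as it is. In 81 repeats of the 9 factors under the other 9, 66 kept the sign and 15 changed it, all for factors whose reported log2 fold change lay between -0.11 and 0.10. Centring on array medians gave -0.014 for Cebpa and -0.030 for Prox1, and array weights gave 0.069 for Cebpb and -0.101 for Prox1. Leaving out 1 array gave -0.28 to 0.024 for Hnf4a, -0.097 to 0.149 for Foxa1, -0.026 to 0.104 for Cebpa, -0.188 to 0.195 for Cebpb, -0.008 to 0.202 for Nr5a2, -0.193 to 0.124 for Prox1 and -0.15 to 0.066 for Nr1h4. The count over all genes was 3 as reported, 0 with the replicate block, 6 after renewed quantile normalization, 8 among the brightest 20%, 11 with array weights and 0 to 95 without 1 array, with 95 without WT replicate 1 and 0 without WT replicate 2. The cause was not tested. With the replicate block 0 of the 9 factors passed, and no call among them changed, while Tmod3 had an adjusted p of 0.0897. Renewed quantile normalization gave medians of -0.34 for the hepatocyte markers and -0.10 for the FOXA targets, with -0.27 for Apob and -0.41 for Serpinc1. Without 1 array the hepatocyte marker median ranged from -0.72 to -0.21 and that of the HNF4A targets from -0.27 to -0.07. The dim signal of the 9 factors, close to the array medians, limits what differences could be seen.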
